A study of Mus musculus with 6 samples.

Results

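A set of 9 epithelial genes was followed in mouse liver: the keratins Krt7, Krt8, Krt18 and Krt19, the surface and junction genes Epcam, Cdh1 and Cldn7, the transcription factor Sox9, and the annexin Anxa5. They were taken by symbol from the tables of normalised values, in which each of the 9 has a single row among 18720 rows, and all 9 passed the filter on low values that left 16594 tested genes. The libraries were poly(A) RNA of liver from male C57BL/6 mice of 1 year that had been put on a high-fat diet and injected intraperitoneally 2 times a week for 12 weeks. Of the 6 libraries, 3 came from mice given R159 (the labels give this code and no further description of the agent), and 3 from mice given vehicle, so age, sex, strain and diet were common to both groups. Whether every library is its own animal is not stated, and p-values therefore reflect the variation among these libraries, some of which could be technical.

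Keratins are the intermediate filament proteins of epithelial cells, and each filament is built from a type I keratin paired with a type II keratin. Hepatocytes make Krt8 (type II) with Krt18 (type I), and the cholangiocytes that line bile ducts make Krt7 (type II) and Krt19 (type I) besides. Cholangiocytes also carry the adhesion molecule Epcam and the transcription factor Sox9, which marks biliary and progenitor cells, while Cdh1 encodes E-cadherin, the cell-to-cell adhesion protein of epithelia. Ductal keratins are known to rise in injured liver, where bile duct cells multiply or hepatocytes take on biliary features. Anxa5 encodes a calcium-dependent protein that binds phosphatidylserine and is made by many cell types.

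Krt8, Cdh1 and Anxa5 were lower in R159 livers and Krt7 was higher. Krt8 was 2.18-fold lower, Cdh1 2.69-fold lower and Anxa5 2.72-fold lower, and Krt7 was 2.5-fold higher, each estimated on the log2(value + 1) scale. Of the 9 genes, 4 were thus called in either direction, beside 27% of all tested genes. The other 5 genes, Krt18, Krt19, Epcam, Sox9 and Cldn7, did not pass the test, which was limma across all tested genes with a Benjamini-Hochberg adjusted p under 0.05. Of all tested genes, 14.2% were called lower and 12.8% higher, so 3 of 9 lower and 1 of 9 higher stand beside that general rate and show nothing particular to these genes. The median log2 fold change (R159 minus vehicle) was -0.94 over the 9 genes and 0.00069 over all tested genes.

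The libraries differed in ways that touch every result below. Estimated depth was 51.3 to 55.7 M reads in R159 and 66.0 to 76.7 M in vehicle. R159 libraries resembled one another less (Pearson's r across genes 0.939 to 0.949) than vehicle libraries did (0.979 to 0.986), and R159 replicate 2 stood farthest from vehicle (0.910 to 0.918), with 973 genes listed at 0. The share of all tested genes called also moved with the analysis. It was 9.61% lower and 9.68% higher with the length trend removed, 8.7% and 9.9% without the empirical Bayes trend, 17.9% and 15.8% with array weights, 10.2% and 16.2% with upper quartile scaling, and 15% and 9.05% with equal totals without the 20 highest genes. It was 12.4% and 11.2% with no filter on low values, and 18.3% and 14.9% at a mean of at least 50. Leaving out R159 replicate 1, 2 or 3 gave 17.5%, 10.7% and 12.1% lower and 15.2%, 9.5% and 11.5% higher. Leaving out vehicle replicate 1, 2 or 3 gave 7.54%, 5.63% and 6.74% lower and 7.51%, 5.54% and 6.42% higher. Short transcripts were in general higher and long ones lower in R159, so values with the trend on transcript length removed are given beside the main results. The liver label held, with all 8 hepatocyte markers present, among them Hnf4a, a hepatocyte transcription factor, at 18094 to 38074. In such bulk tissue, fewer cells of a type and less RNA per cell cannot be told apart.

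The upstream sequences of 3 keratin genes are shown because they stand for the hepatocyte pair, in which Krt8 was lower, and for the ductal Krt7, which was higher. They are the 250 bases before the RefSeq transcription start in GRCm38.p6, which is not the build of the deposited values (mm39), and they lie at chr15:102004343-102004592 on the minus strand for Krt8, at chr15:102027966-102028215 on the plus strand for Krt18 and at chr15:101412153-101412402 on the plus strand for Krt7. Capitals mark GGGCGG, the core of the GC box, on either strand.
Krt8: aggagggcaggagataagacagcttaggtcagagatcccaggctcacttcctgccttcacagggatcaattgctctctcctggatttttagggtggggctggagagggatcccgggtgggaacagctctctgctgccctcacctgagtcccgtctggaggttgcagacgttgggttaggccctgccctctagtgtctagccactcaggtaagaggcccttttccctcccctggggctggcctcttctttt
Krt18: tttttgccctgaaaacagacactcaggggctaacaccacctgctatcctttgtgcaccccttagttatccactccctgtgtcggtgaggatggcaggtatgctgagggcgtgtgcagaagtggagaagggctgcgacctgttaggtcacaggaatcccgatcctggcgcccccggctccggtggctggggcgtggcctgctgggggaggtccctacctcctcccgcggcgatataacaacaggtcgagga
Krt7: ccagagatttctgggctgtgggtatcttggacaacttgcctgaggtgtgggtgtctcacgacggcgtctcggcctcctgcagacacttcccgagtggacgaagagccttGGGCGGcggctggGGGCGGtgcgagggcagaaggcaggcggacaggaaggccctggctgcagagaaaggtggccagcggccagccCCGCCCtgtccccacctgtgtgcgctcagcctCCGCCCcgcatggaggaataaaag
Krt8 and Krt18 are transcribed from opposite strands, with 0 protein-coding genes between them in the RefSeq annotation. The GC box core occurred 4 times in the Krt7 window, starting 141, 128, 56 and 24 bases before the start, and 0 times in those of Krt8 and Krt18. It is found in 32.7% of 32851 windows of this length, and such a match is a run of letters only. RefSeq promoters were matched for 6 of the 9 genes. The runs TATAAA and TGANTCA were searched too, and occurred 0 times in the windows of each of the 6. They are found in 12.4% and 6.75% of all windows. The GC box core also occurred 1 time in the Epcam window and 1 time at start site 2 of Cldn7. Both genes had negative log2 fold changes (-0.67 and -1.10). It occurred 0 times in the window of Anxa5, which was lower. A link between such matches and the changes was not tested.

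Among the hepatocyte keratins, Krt8 was at 13958, 24061 and 20230 in R159 replicates 1 to 3 (values are normalised estimated counts), and at 49319.7, 48765 and 29461 in vehicle replicates 1 to 3. All 3 R159 libraries lay below all 3 vehicle libraries, and vehicle replicate 3 was the lowest of its group. The means were 19416 ± 5101 and 42515 ± 11309 (SD, n = 3 each), with a log2 fold change of -1.13 (SE 0.28, limma adjusted p = 0.0185). The call was lost without vehicle replicate 1 (limma adjusted p = 0.0645), without vehicle replicate 2 (-1.01, adjusted p = 0.0738) and without the empirical Bayes trend (adjusted p = 0.0525). Krt8-ps, a processed pseudogene of Krt8 whose reads may be shared with it, was listed at 144, 205 and 188 in R159 and 562, 674 and 402 in vehicle. It was lower too (-1.59, limma adjusted p = 0.00488), and its values were small beside those of Krt8.

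Krt18, the partner of Krt8, was at 9503, 21781 and 17668 in R159 and at 33289.5, 27820.1 and 18048 in vehicle. R159 replicate 2 lay above vehicle replicate 3, so the groups overlapped, and R159 replicate 1 was the lowest library for both keratins. The means were 16318 ± 6249 in R159 and 26386 ± 7721 in vehicle (SD, n = 3 each). Its log2 fold change of -0.73 (95% interval -1.48 to 0.02) did not pass the test (limma adjusted p = 0.129). With the length trend removed it did, at -1.05 (limma adjusted p = 0.0278), and the Krt18 transcript of 1437 nt is among those whose length class moved up (median log2 fold change 0.25 in coding genes of 1290 to 1774 nt).

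Krt7, the type II keratin of bile duct epithelium, was at 182, 129 and 282 in R159 and at 78.9, 57.6 and 91.3 in vehicle. Each R159 library was above each vehicle library, with R159 replicate 3 the highest. The means of 198 ± 77.4 and 75.9 ± 17.1 (SD, n = 3 each) gave a log2 fold change of 1.32 (SE 0.35, limma adjusted p = 0.0251). These values rest on few reads, 90 to 230 estimated reads in R159 and 79 to 109 in vehicle, and in unscaled reads R159 replicate 2, at 90, fell within the vehicle range. The call was lost without R159 replicate 3 (1.03, limma adjusted p = 0.0627) and without vehicle replicate 1 (1.36, adjusted p = 0.0637), 2 (1.14, adjusted p = 0.097) or 3 (1.47, adjusted p = 0.0504). With the length trend removed, at a transcript length of 4094 nt, the log2 fold change of Krt7 was 1.61 (limma adjusted p = 0.015). A gene model on the other strand, Gm671, overlaps Krt7 in the GENCODE annotation and is not analysed here, and whether counting used strand is not given in the sources used here.

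Krt19, the type I keratin of bile ducts, was at 81.3, 132 and 352 in R159 and at 105, 53.9 and 85.5 in vehicle. R159 replicate 3 stood well above the other 5 libraries, while R159 replicate 1 lay inside the vehicle range. The means were 188 ± 144 and 81.4 ± 25.6 (SD, n = 3 each), and the log2 fold change of 0.98 (95% interval -0.18 to 2.15) did not pass the test (limma adjusted p = 0.182). Without R159 replicate 3 it was 0.40 (adjusted p = 0.49), and with limma's array weights 1.63 (adjusted p = 0.0308).

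**Figure D1:**
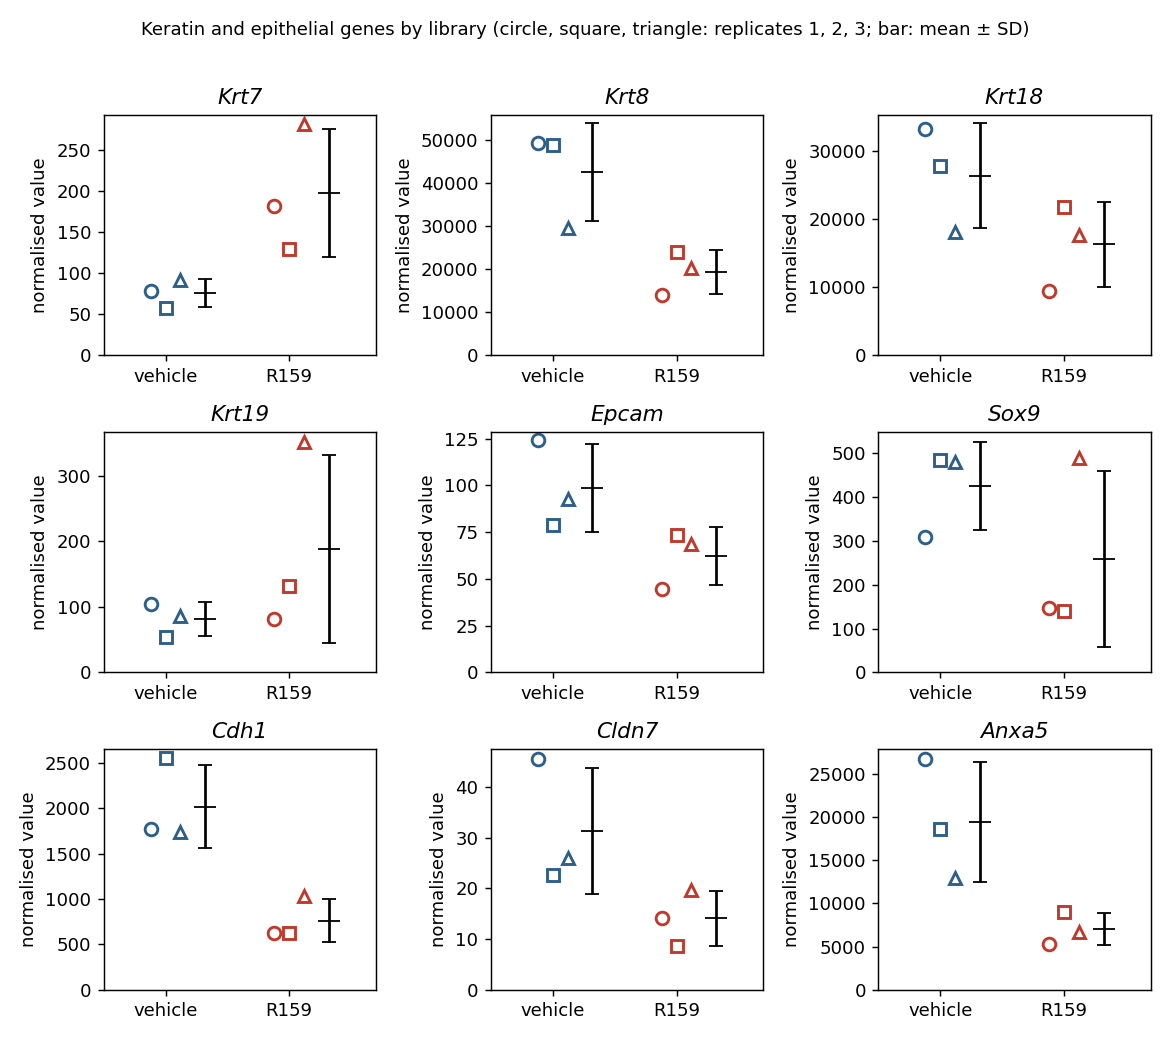
Normalised value (estimated counts after the authors' scaling, linear axes from 0) of each of the 9 genes in each library, vehicle in blue and R159 in red, with replicates 1, 2 and 3 as circle, square and triangle and the mean ± SD beside them. Krt8, Epcam, Cdh1, Cldn7 and Anxa5 show no overlap with R159 lower, Krt7 none with R159 higher, and R159 replicate 3 (red triangle) is the highest library for Krt7, Krt19 and Sox9.

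Levels between keratins were compared per kb of the longest coding transcript, since longer transcripts give more reads. On that scale Krt8 and Krt18 made up 98.7% to 99.6% of the summed signal of the 4 keratins in R159 and 99.7% to 99.9% in vehicle, and Krt7 with Krt19 the remaining 0.419% to 1.27% and 0.109% to 0.276%. The hepatocyte pair thus made up nearly all keratin mRNA in every library. Krt7 per kb was 0.624%, 0.257% and 0.666% of Krt8 in R159, and 0.0765%, 0.0565% and 0.148% in vehicle. The groups did not overlap (log2 difference 2.46, exact permutation p = 0.10, two-sided, the smallest that 3 against 3 libraries allow). Krt19 per kb was 0.78%, 0.554% and 1.82% of Krt18 in R159 and 0.287%, 0.177% and 0.432% in vehicle, also without overlap (log2 difference 1.72, exact permutation p = 0.10).

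Within the hepatocyte pair, Krt18 per kb was 92.8%, 123% and 119% of Krt8 in R159 and 92.0%, 77.7% and 83.5% in vehicle. R159 replicate 1 and vehicle replicate 1 nearly met, and the log2 difference was 0.40 (exact permutation p = 0.10). Within the ductal pair, Krt19 was 116%, 266% and 324% of Krt7 in R159 and 345%, 243% and 243% in vehicle, with overlap (exact permutation p = 0.8). With 3 against 3 libraries no p could fall below 0.10, so none of the 4 ratios could reach 0.05, adjusted or not. Krt7 is divided here by its longest coding transcript, of 4094 nt, so its level per kb against other keratins depends on that choice. Its change between groups in the main fit does not. The change with the length trend removed (1.61) does use that length, and other lengths were not tried.

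**Figure D2:**
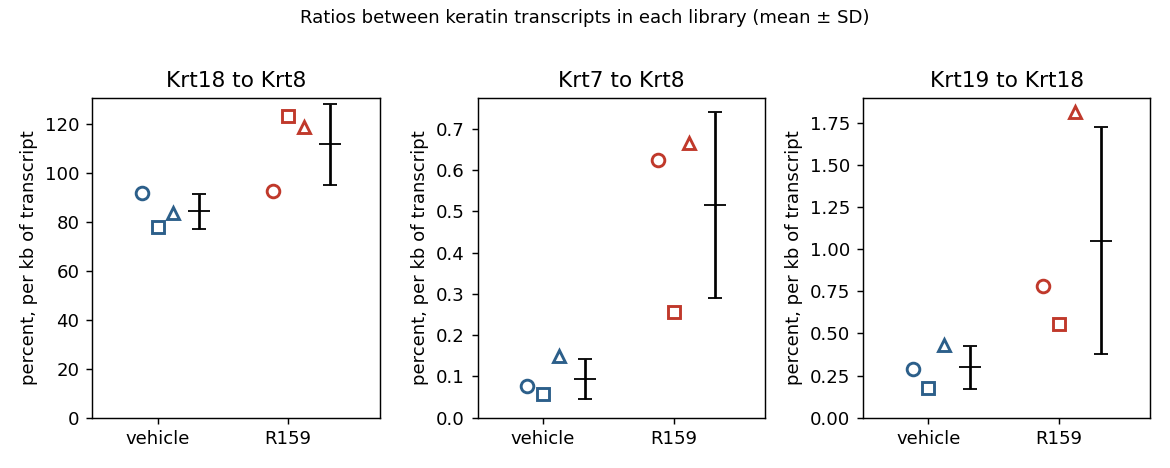
Ratio of keratin levels per kb of transcript, in percent, for Krt18 to Krt8, Krt7 to Krt8 and Krt19 to Krt18 in each library (linear axes from 0, symbols for replicates 1 to 3 as circle, square and triangle, bars mean ± SD). All 3 ratios are higher in each R159 library than in each vehicle library, by the narrowest margin for Krt18 to Krt8 (92.8% against 92.0%).

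Epcam, the adhesion molecule of bile duct and progenitor cells, was at 44.4, 73.3 and 68.6 in R159 and at 125, 78.7 and 93.0 in vehicle. The groups did not overlap, by a gap between 73.3 and 78.7, but the log2 fold change of -0.67 (95% interval -1.46 to 0.12) did not pass the test (limma adjusted p = 0.181). Groups without overlap and with R159 lower were seen in 23.6% of all tested genes and with R159 higher in 22.5%, against 5 and 1 of these 9 (46.2% of all genes in either direction, against 6). Sox9 was at 146, 141 and 490 in R159 and at 309, 485 and 480.1 in vehicle. R159 replicates 1 and 2 were below all vehicle libraries and R159 replicate 3 above them, so that Sox9 was not called (-0.94, 95% interval -1.97 to 0.09, limma adjusted p = 0.151). Without R159 replicate 3 the log2 fold change was -1.53 (limma adjusted p = 0.0129).

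Cdh1 was at 624, 623 and 1036 in R159 and at 1773, 2553 and 1735 in vehicle. The highest R159 library, replicate 3, was far below the lowest vehicle library. Cdh1 fell from 2020.4 ± 461 to 761 ± 238 (SD, n = 3 each), a log2 fold change of -1.43 (SE 0.25, limma adjusted p = 0.00563). It was called in each of 17 alternative analyses, and with the length trend removed it stood at -1.10 (limma adjusted p = 0.0182). At 4430 nt it lies in a length class where 28.6% of coding genes were called lower. Cldn7, a claudin of tight junctions and of the lateral membrane of epithelia, was at 14.1, 8.63 and 19.6 in R159 and at 45.7, 22.6 and 26.0 in vehicle. These correspond to 13, 6 and 16 estimated reads in R159 and 55, 31 and 31 in vehicle, and the 95% exact Poisson interval of the lowest, 6 reads, runs from 2.2 to 13.1 (counting error only). The R159 libraries were all lower, yet the log2 fold change of -1.10 (95% interval -2.38 to 0.17) did not pass the test (limma adjusted p = 0.172).

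Anxa5 was at 5306, 9068 and 6746 in R159 and at 26819, 18652 and 13012 in vehicle. The highest R159 library stayed under the lowest vehicle library. Anxa5 fell from 19494.5 ± 6942 to 7040.02 ± 1898 (SD, n = 3 each; log2 fold change -1.44, SE 0.29, limma adjusted p = 0.00864). As for Cdh1, the call held in each of 17 alternatives, including removal of the length trend, where it stood at -1.61 (limma adjusted p = 0.00578). At 1731 nt Anxa5 belongs to a length class in which 2.96% of coding genes were called lower and 14.1% higher.

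**Figure D3:**
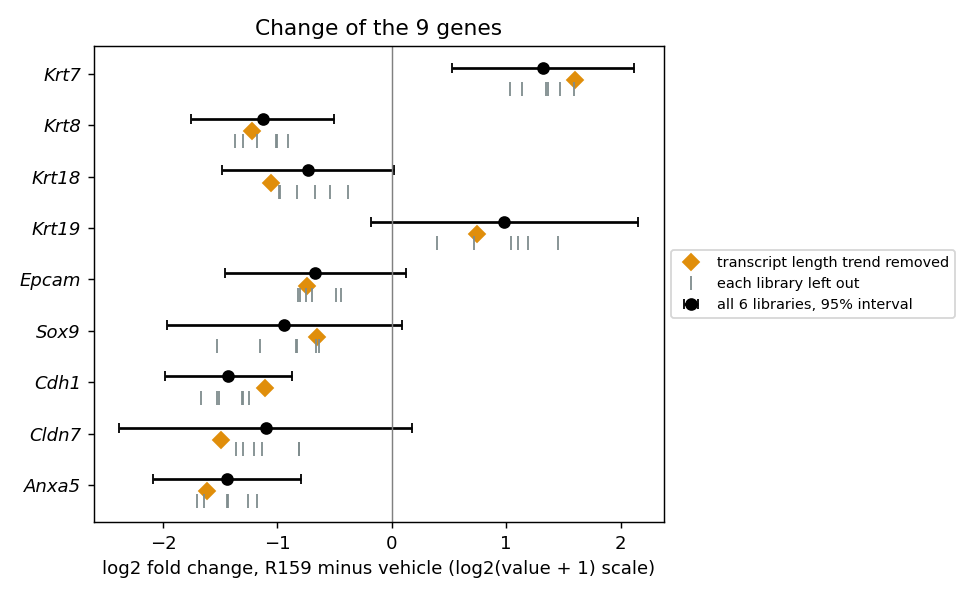
Log2 fold change of each of the 9 genes (R159 minus vehicle, log2(value + 1) scale), with black points and 95% intervals for all 6 libraries, orange diamonds after removal of the transcript length trend, and grey ticks for each library left out. The intervals of Krt8, Cdh1 and Anxa5 lie below 0 and that of Krt7 above it, and no gene changes sign under any of these settings.

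Ordered by level per kb in vehicle, Krt8 (21714 ± 5776) and Krt18 (18362 ± 5373) came first, followed by Anxa5 (11262 ± 4010.3), Cdh1 (456 ± 104), Sox9 (103 ± 24.3), Krt19 (51.6 ± 16.2), Epcam (48.4 ± 11.5), Cldn7 (23.5 ± 9.34) and Krt7 (18.5 ± 4.17; all SD, n = 3). Neighbours in this order were closer than their spread for Krt8 and Krt18, for Krt19 and Epcam, and for Cldn7 and Krt7. In R159 Krt18 (11355 ± 4349) came before Krt8 (9916 ± 2605), closer than their spread. At the lower end of the order, Krt19 stood at 119.6 ± 91.2, Sox9 at 62.7 ± 48.4, Krt7 at 48.3 ± 18.9, Epcam at 30.5 ± 7.6 and Cldn7 at 10.6 ± 4.11 per kb. The bile duct genes were thus minor transcripts of these livers, and Krt8, Krt18 and Anxa5 are not confined to bile duct cells.

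Across the 6 libraries, and as a description only, the tested genes whose log2 values ran most like those of Krt8 were Plek, Pla2g7 and Fam124a (Pearson's r 0.994, 0.992 and 0.992 of 16593 genes compared). For Krt18 they were Ctss, Gdf3 and Parvg (0.997, 0.996 and 0.991), and for Cdh1 they were Cdk18, Ankrd40 and Rbm45 (0.998, 0.994 and 0.993). Plek, Ctss and Parvg are genes of blood and immune cells. Krt18 was 220th in likeness to Krt8 (r = 0.928) and Anxa5 was 29th (r = 0.976). With 6 libraries in 2 groups, values near 1 are frequent.

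Other genes of the same structures were counted in lists made from what they are known to do. Beside each count stand the shares of all tested genes, 14.2% lower and 12.8% higher. With the length trend removed these shares were 9.61% and 9.68%. Of 14 genes of desmosomes, the junctions that anchor keratin filaments, and of keratin linkers, 6 were lower and 0 higher, with a median log2 fold change of -0.62. Desmoplakin (Dsp), which ties keratin to the junction, fell from 6756 ± 473 to 1923 ± 917 (-1.92, limma adjusted p = 0.00431). The desmosomal cadherin genes Dsg2 and Dsc2 fell by 1.25 and 1.02 in log2 units, and the plaque gene Pkp4 by 0.94, with limma adjusted p of 0.00402, 0.00476 and 0.00633. With the length trend removed, 5 of the 14 were lower, and all 4 of those named kept their call. The count was 4 without R159 replicate 2 or vehicle replicate 1, 2 or 3, 7 without R159 replicate 1 and 6 without R159 replicate 3. Of all tested genes, 10.7%, 7.54%, 5.63%, 6.74%, 17.5% and 12.1% were called lower in these analyses, in that order. Without the empirical Bayes trend it was also 4, beside 8.7% of all genes. Plec, which encodes the linker plectin, was not called (-0.69, limma adjusted p = 0.0572), nor was the non-epithelial filament gene Vim (0.04, adjusted p = 0.934).

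Of 30 tested genes of adherens and tight junctions, 14 were lower and 1, Crb3, was higher, and the median was -0.67. The claudin gene Cldn2 fell from 7998 ± 864 to 3529.5 ± 486 (-1.18, limma adjusted p = 0.00382), and Vcl, which encodes vinculin, an actin linker of adhesion sites, fell from 2533 ± 117 to 495 ± 285 (-2.55, adjusted p = 0.00476). Nectin1, an adhesion gene, fell by 1.10 in log2 units, with a limma adjusted p of 0.00749. The cadherin partner genes Ctnnb1, Ctnna1 and Ctnnd1 and the second liver cadherin gene Cdh2 were called lower as well, but Ctnna1 and Ctnnd1 were not called once the length trend was removed (limma adjusted p = 0.0631 and 0.174). After removal of the length trend 8 were lower and 0 higher, and without vehicle replicate 2 or 3 the count was 9 each. Cldn4 and Cldn6, claudins of low level here, were not called (-2.71 and -2.45). Nor were Cldn15 and Marveld3, also of low level, whose log2 fold changes were positive (2.08 and 1.22). Of the 30 genes, 24 had a negative and 6 a positive log2 fold change.

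Of 16 tested cholangiocyte markers outside the 9 genes, 2 were lower and 0 higher (median -0.76). The count of 2 is near the 14.2% of all tested genes called lower. Of the 16, 15 had a negative log2 fold change and 1, Slc10a2, a positive one (0.67, not called). In 7 the groups did not overlap with R159 lower, beside 23.6% of all tested genes. Those called were Elf3, an epithelial transcription factor, which fell from 153 ± 62.9 to 36.2 ± 21.0 (-2.15, limma adjusted p = 0.021), and the adhesion gene Alcam (-0.67, adjusted p = 0.0108). Alcam lost its call with the length trend removed (-0.21, adjusted p = 0.362). Spp1, which encodes osteopontin of bile duct cells and macrophages, was at 1595, 3162 and 2937 in R159 and at 11470.4, 5198 and 3384 in vehicle (-1.26, limma adjusted p = 0.0541), and was called lower with the length trend removed (-1.54, adjusted p = 0.0258). The count was 5 without R159 replicate 3, 4 without R159 replicate 1, 3 without vehicle replicate 3, 1 without vehicle replicate 1 and 0 without vehicle replicate 2. Of all tested genes, 12.1%, 17.5%, 6.74%, 7.54% and 5.63% were called lower in these analyses, in that order. With the length trend removed the list had 3 lower and 1 higher, beside 9.61% and 9.68% of all genes. The 1 higher was Slc10a2 (0.97, limma adjusted p = 0.025). Cftr, the chloride channel gene of bile duct cells, was under the filter, at no more than 19.1 in any library.

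Regulators of biliary fate gave 3 lower and 0 higher of 19 tested (median -0.40). The count of 3 is near the 14.2% of all tested genes called lower. Rbpj, the DNA-binding factor of Notch signalling, fell from 913 ± 29.2 to 516 ± 55.2 (-0.83, limma adjusted p = 0.00931), the receptor gene Notch2 fell by 0.92 and Sox4 by 1.14 on the log2 scale (adjusted p = 0.0126 and 0.0346). With the length trend removed Notch2 alone of these was called, while Rbpj was at -0.40 (limma adjusted p = 0.0771). The count was 6 without R159 replicate 1, 2 without R159 replicate 3 or vehicle replicate 1 or 2, and 1 without vehicle replicate 3. Of all tested genes, 17.5%, 12.1%, 7.54%, 5.63% and 6.74% were called lower in these analyses, in that order. The Notch ligand gene Jag1 (-0.10) and the target Hes1 (-0.41) were not called.

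Among 5 tested keratins other than the 4 described, Krt10 was higher (283 ± 91.6 against 111 ± 12.4, log2 fold change 1.31, limma adjusted p = 0.0119) and 0 were lower. Krt20 was listed at 3.25, 0 and 0 in R159 and at 6.64, 9.48 and 95.5 in vehicle, which gave no call (limma adjusted p = 0.0581). Of 13 annexins and S100 partners, 2 were lower, 1 was higher and 10 were not called (median 0.12, S100 genes included). The count of 2 is near the 14.2% of all tested genes called lower. Anxa2 fell from 6744 ± 1773 to 2889 ± 956 (-1.24, limma adjusted p = 0.01) and Anxa6 by 0.73 on the log2 scale (adjusted p = 0.0136). S100a6 was higher (1.09, limma adjusted p = 0.0386), but at 0.18 (adjusted p = 0.728) with the length trend removed. Anxa1 (log2 fold change 0.19), Anxa3 (0.34), Anxa4 (-0.18), Anxa7 (-0.14) and Anxa11 (-0.47, R159 lower without overlap) were not called. The annexin count of 2 was 3 without R159 replicate 3 and 1 without vehicle replicate 2 or 3.

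**Figure D4:**
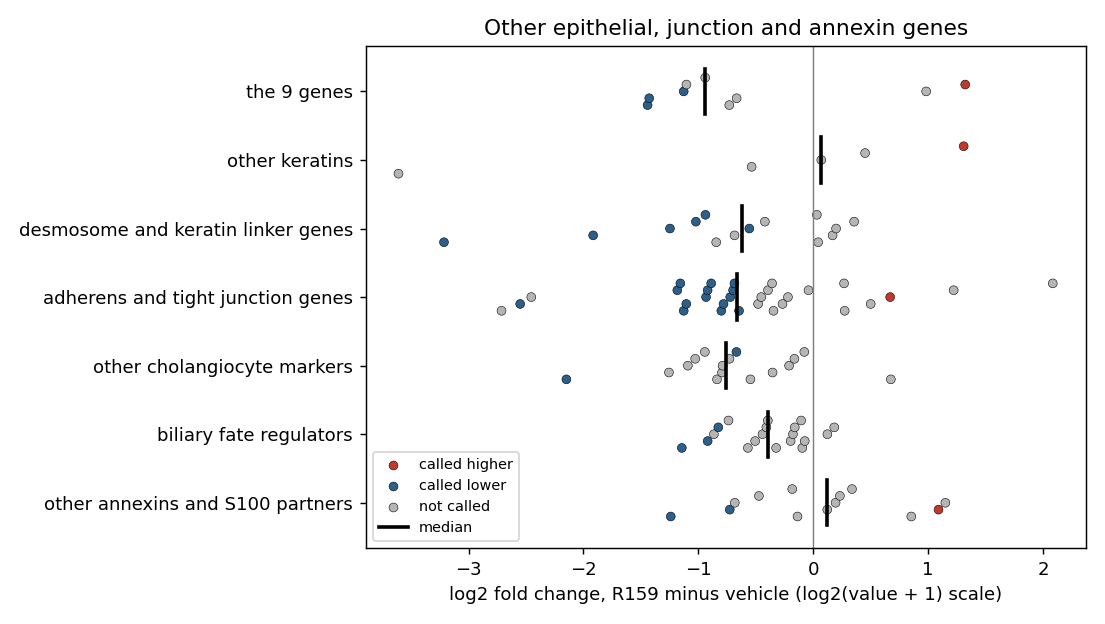
Log2 fold change (R159 minus vehicle) of the 9 genes and of each tested gene in 6 further lists, blue where called lower, red where called higher and grey where not called, with the list median as a black bar. Desmosome and junction genes lie mostly to the left of 0 (medians -0.62 and -0.67), and annexins and their partners lie on both sides (median 0.12).

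Markers of other cells were measured in the same libraries, and their counts stand beside the same shares of all tested genes, 14.2% lower and 12.8% higher. Of 6 mesothelial markers, cells that also make Krt7, Krt8, Krt18 and Krt19, 1 was called higher, Msln, at 250.3, 227 and 743 in R159 and 84.7, 36.4 and 179 in vehicle (limma adjusted p = 0.0351). The summed value of the 6 ran from 528 to 1794 in R159 and from 247 to 826 in vehicle, with overlap, and was highest in R159 replicate 3, the library in which Krt7, Krt19 and Sox9 were highest too. That library also held the most pancreatic acinar RNA, with Ctrb1 at 33.1, Cela3b at 17.2 and Cpa1 at 13.5. In the other 5 libraries those genes did not exceed 5.42, 3.25 and 0. The part of either tissue in the ductal keratin values was not tested.

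Some markers of macrophages and of stellate cells and fibroblasts were lower in R159. Of 7 macrophage markers 3 were called lower and 0 higher (sum 14349 to 17403 in R159 and 17535 to 26508 in vehicle), and of 7 stellate and fibroblast markers 3 were lower and 0 higher (10269.6 to 22757 and 17383 to 31201, with overlap). Of those not called, Marco (3.07), Clec4f (0.20), Dcn (0.28) and Acta2 (0.04) had positive log2 fold changes. Hepatocyte markers, 1 higher and 1 lower of 8, summed to 4572540 to 7561780 and 3636520 to 5452960, endothelial markers, 2 lower of 7, to 5509.7 to 7205 and 6358 to 8713, and T, NK and B cell markers, 1 higher of 7, to 430.2 to 1080 and 362 to 537. Lists for pancreatic acini and for gallbladder and intestine had 1 of 1 and 2 of 2 tested genes called higher, Cela1, Lgals4 and Fabp2. Vil1 and Muc13, the gallbladder and intestine genes under the filter, were not higher in R159. Vil1 was at 0, 0 and 8.58 in R159 and at 13.3, 13.1 and 10.9 in vehicle. Muc13 was at 1.08, 0 and 4.90 in R159 and at 9.14, 15.3 and 0 in vehicle, with overlap. With the length trend removed, Cela1 and Fabp2 were not called (limma adjusted p = 0.145 and 0.104), 0 endothelial and 0 hepatocyte markers were called, and 4 macrophage and 2 stellate and fibroblast markers were lower. Their part in the changes of Anxa5, Krt8 and Cdh1 was not tested. Of the 7 markers in each of the acinar and the gallbladder and intestine lists, 4 had a value and 1 and 2 were tested, so these lists rest on few genes.

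**Figure D5:**
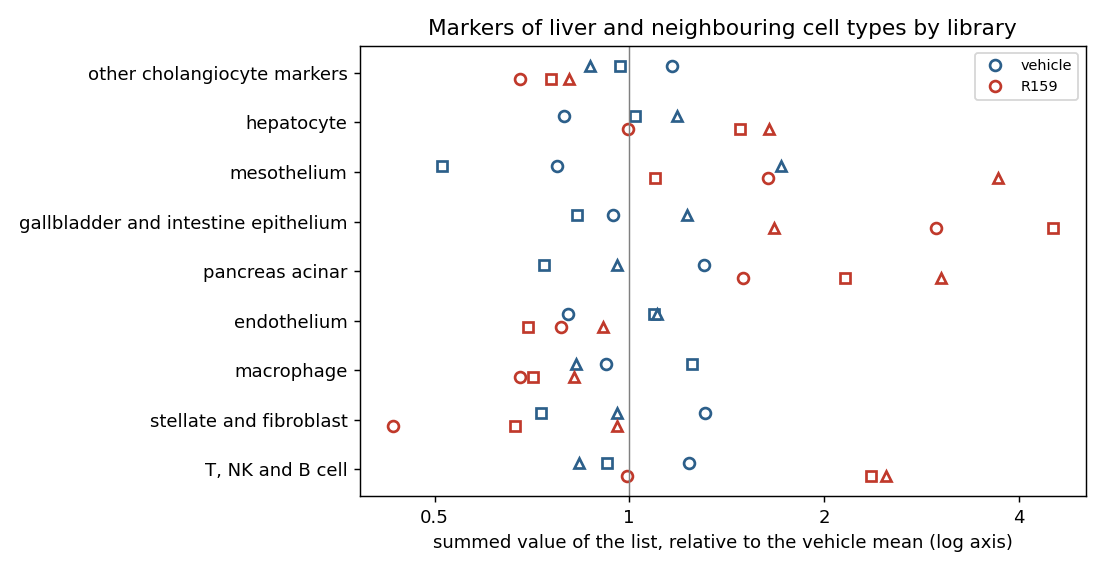
Summed value of each marker list in each library relative to the vehicle mean (log axis), vehicle in blue and R159 in red, with replicates 1, 2 and 3 as circle, square and triangle. Mesothelial markers are highest in R159 replicate 3, and cholangiocyte markers outside the 9 genes sum to 18693 to 22264 in R159, below the 23969 to 32054 of vehicle. That sum is weighted to abundant genes, among them Spp1, also made by macrophages, with means of 2564 in R159 and 6684 in vehicle. Of its 16 tested genes 2 were called lower.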

How the data were processed

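Strand-selecting poly(A) libraries from 6 liver samples were read from both ends, 50 bp each, per the labels' protocols. Tools come from the submitters' processing notes, which name the mm39 build and, without saying what each did, the aligner STAR 2.7.8a, then cutadapt, FastQC 0.11.9, R 4.2.3 and a DESeq2 version written as 3.5. For the counter, annotation and filters, the answer is not given in the sources used here. The deposited values, which the authors call normalized counts, are a signal that reads, from the values, as estimated gene counts divided by 1 factor per sample. Depth was estimated from the step between low values. By that step 67.8% to 76.1% of values under 200 reads came within 0.02 of a whole read. Since many did not, a count model was not the main test.

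After dropping genes whose mean was under 10, log2(value + 1) was modelled on group alone using limma 3.58.1 (R 4.3.3) and its trended eBayes step. The p-values were adjusted by Benjamini-Hochberg over every tested gene, at a threshold of 0.05. The scale understates changes of low genes. Transcript length, the longest coding transcript in GENCODE for GRCm38, was known for 81.4% of tested genes, and its trend was removed in an alternative by subtracting a lowess curve (span 0.3) from each library. The scripts were tested on simulated data. Ratios were tested by exact permutation in SciPy 1.17.1.

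The members, the lists, the design and the alternatives were chosen with earlier results of these data known. The rule for named genes took the 9 members, from each of 6 context lists up to 4 called genes of smallest p (or the 1 of smallest p), and the 3 genes most like Krt8, Krt18 and Cdh1. Cldn4, Cldn6, Cldn15, Marveld3, Crb3, Ctnna1, Ctnnb1, Ctnnd1, Cdh2, Spp1, Slc10a2, Cftr, Plec, Vim, Jag1, Hes1, Krt20, the markers of other cells and the annexins not called were added after their values were seen. limma-voom on estimated reads was added after seeing the data. Some genes that the rule or the lists hold are not reported here by name.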

Additional observations from a re-analysis of the deposited data

How the results depend on the processing

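Under 17 alternatives, the 9 genes and 17 called genes of the context lists gave 441 values, of which 407 kept direction and side of the threshold, 31 lost the call, 3 gained one and 0 reversed. The 17 were picked as called genes of smallest p in these same data, and genes not called that stayed so count as kept. The 407 is therefore no independent measure of stability. The genes most like Krt8, Krt18 and Cdh1 were not run under the alternatives. The count of the 9 genes called lower stayed between 2 and 4. The count called higher was 2 with array weights, which added Krt19, and 0 to 1 when a library was left out. Krt7 lost its call in 4 of 6 such analyses, and Cdh1 and Anxa5 in 0 of 6. Upper quartile scaling moved the median of all genes by 0.12 and equal totals without the 20 highest genes by -0.11. The split of all called genes was 2125 higher and 2354 lower, but 2694 and 1693 with upper quartile scaling, and 1501 and 2494 with equal totals. It was 1307 and 1297 with the length trend removed, 1642 and 1443 without the empirical Bayes trend, and 1247 and 1251, 920 and 934, and 1066 and 1119 without vehicle replicate 1, 2 and 3. The cause was not tested.

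With the replicate number as a block, 3 of the 9 genes were lower and 1 higher, as without it, and 1912 of all genes were higher and 2033 lower. The deviations of same-numbered libraries correlated at -0.098, 0.031 and 0.108, and 1 of 3 R159 libraries correlated best with its own number. These values show no pairing by number, but with 3 libraries per group a weak pairing could go unseen. Depth limits Cldn7, at 6 to 55 estimated reads, and with a mean value of at least 50 it was not tested.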
